A study of Mus musculus with 74 samples.

Results

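The comparison described here set small intestinal epithelium that had lost Cdx2 from E10 against wild-type forestomach epithelium of the same embryonic stage, E16. It rests on 5 RNA-seq libraries of the 74 samples in the series, 31 of which are RNA-seq libraries, and these 5 were chosen by their titles. The 3 libraries of deleted intestine came from Cdx2f/f; Shh-Cre embryos on a B6;129 mixed background, collected at E16 with no treatment. The 2 forestomach libraries came from CD1 wild-type embryos at E16. Wild-type CD1 small intestine and hindstomach at E16 and forestomach at E14, with 2 libraries each, are given beside them. In all of these groups trypsin-released cells were sorted for the epithelial surface protein Epcam, and libraries were made from their RNA by the SMARTer-Seq v4 method for small inputs. Wild-type small intestine and hindstomach at E14, and forestomach, hindstomach and small intestine at E12, with 2 libraries each, enter the gene sets or correlations. Shh-Cre is active in endoderm and in other tissues that make Shh, and no group of Cdx2f/f embryos without Cre was analysed here. Genotype, strain and organ therefore differ together between the 2 groups and cannot be told apart. The labels do not say whether the libraries of a group came from separate embryos or pools, so p-values measure only the spread between libraries, which may be in part technical. Replicate 3 of the deleted intestine was not the same material as replicates 1 and 2: Xist, made from the inactive X chromosome of females, had 0.668, 3.19 and 82.8 CPM in replicates 1, 2 and 3, and the Y-linked gene Eif2s3y had 108, 103 and 24.6 CPM. The forestomach libraries had 27.5 and 28.3 CPM of Xist and 21.9 and 24.6 CPM of Eif2s3y, and the part of sex in the results was not tested.

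Cdx2 is a homeodomain transcription factor that is made in the early hindgut and midgut endoderm, among other embryonic tissues, and is kept in the intestinal epithelium for life. The mouse forestomach is lined by a stratified squamous epithelium like that of the esophagus, in which p63 (Trp63) and Sox2 maintain basal cells that carry keratins 5 and 14, and the cells above them make other keratins and, at the surface, cornified envelope proteins. The hindstomach behind it is glandular and makes mucus, digestive enzymes and acid. Loss of Cdx2 from early endoderm is known to let foregut genes appear in the intestine, and the comparison asks how far the deleted intestine matches squamous stomach of its own stage.

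The forestomach libraries were shallow, with 5970227 and 6335340 counts, against 12812432 to 22997638 in the deleted intestine. Levels are CPM, counts scaled to a common TMM-adjusted library size, and a gene at 3 counts or fewer in every library of a group was taken as at the floor. Adjusted p-values are Benjamini-Hochberg values from edgeR's quasi-likelihood test over 17239 genes, and log2 fold changes are deleted intestine minus the other group. Calls required an adjusted p under 0.05 together with an absolute log2 fold change of 1 or more. Cdx2 was read first. It stood at 17.4, 14.5 and 27.5 CPM in replicates 1, 2 and 3 of the deleted intestine, 196.4 and 217.8 CPM in wild-type intestine, 12.1 and 13.05 CPM in hindstomach and 0.463 and 0 CPM in E16 forestomach. The deleted libraries lay below both intestinal libraries, with a log2 fold change of -3.40 (SE 0.27, adjusted p = 3.0e-09), but still above the forestomach, where Cdx2 was at the floor, by at least 43-fold. Which part of the transcript the floxed allele removes is not given in the labels, and how many sorted cells had kept Cdx2 was not tested.

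Both forestomach libraries carried the squamous markers Trp63, Krt5 and Krt14, which were at or near 0 CPM in wild-type intestine. The forestomach libraries also held RNA of other cells. A list of 43 markers of blood, mesenchyme, immune, endothelial, neural and mesothelial cells took 4.42% and 5.38% of their counts, against 0.0259% to 0.0431% in the deleted intestine, 0.235% to 0.255% in wild-type intestine and 0.0249% to 0.0272% in E14 forestomach. In these bulk samples fewer cells of a type and less RNA per cell cannot be told apart. The deleted libraries differed from each other, and no single one stood apart on every measure. Replicate 3 was the lowest of the 3 for 8 of 13 squamous regulators, 10 of 14 basal, 11 of 22 suprabasal and 13 of 21 cornified-layer genes, as well as for 16 of 20 glandular genes and for all 6 simple keratins, and the highest for 8 of 10 intestinal transcription factors. Replicate 1 was the lowest for 12 of 23 enterocyte, 6 of 9 goblet cell and 16 of 35 Hox genes. Chi-square per degree of freedom over genes was 104 between replicates 1 and 2, 132 between 1 and 3 and 50.5 between 2 and 3, against 10.7 for the shallower forestomach pair, so replicate 1 was the farthest by that measure. The chymosin gene Cym, chosen after its values were seen, took 11.7%, 11.3% and 8.26% of the counts of replicates 1, 2 and 3 of the deleted intestine and 0.165% and 0.185% of those of E16 forestomach.

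Over all genes the deleted intestine was far from E16 forestomach, but not from it alone. Of 17239 genes tested, 9194 were called, or 53.3%. By the same rule 9697 were called against E16 hindstomach, 9054 against E14 forestomach and 8875 against E16 small intestine. Set against E16 forestomach, the deleted intestine was higher for 4250 genes (24.7%) and lower for 4944 (28.7%). The log2 fold change from E16 forestomach had a median of -0.07 over all genes. Genomic span moved with these calls: of the 4058 genes with the shortest genomic span in RefSeq 33.3% were called higher and 23.2% lower, and of the 4058 with the longest span 17.4% and 32.1%. Its part in the counts was not tested. By list, the deleted intestine was lower than forestomach for part of the squamous genes and higher for most tested glandular stomach, enterocyte and goblet cell genes. List medians are given with genes at the floor set to the bound that the floor allows.

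**Figure D1:**
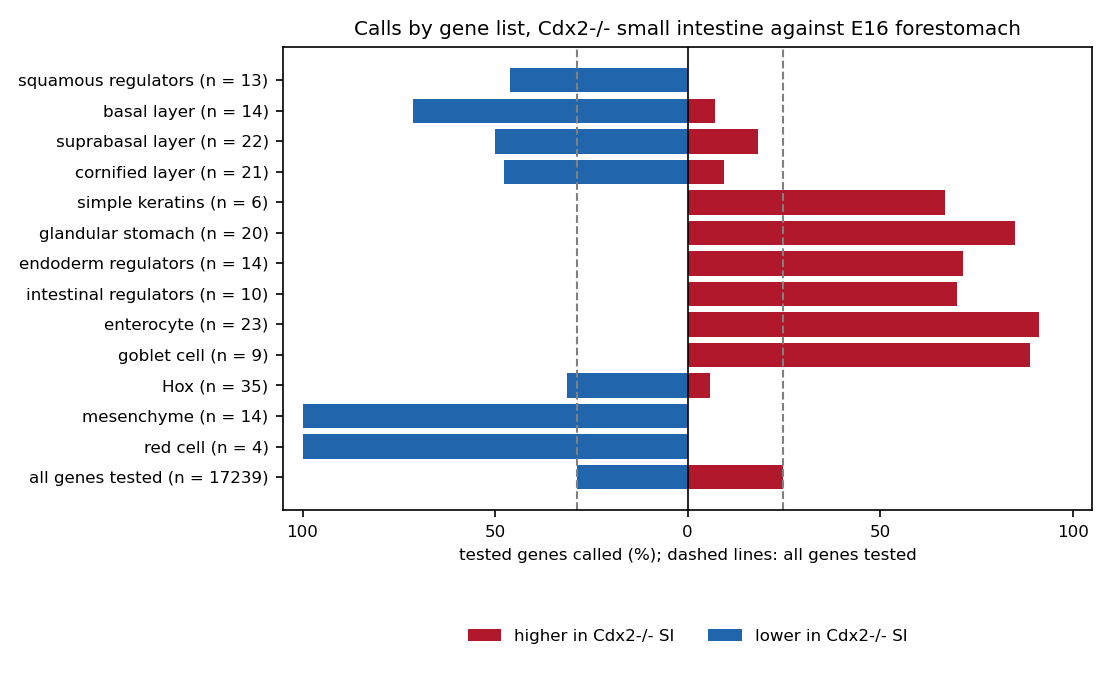
Percentage of the tested genes of each list that were called higher (red, right) or lower (blue, left) in the deleted intestine than in E16 forestomach, with the number tested; dashed lines mark 24.7% and 28.7%, the shares over all 17239 genes. The 4 squamous lists lean to the left and the simple keratin, glandular, endoderm, intestinal, enterocyte and goblet lists lie wholly to the right.

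Squamous regulators were present in the deleted intestine, some near forestomach level and others well below it. Of 13 tested, 6 were lower than in E16 forestomach and 0 higher, with a median log2 fold change of -0.77. Sox2, which specifies foregut endoderm, stood at 66.4, 70.7 and 51.3 CPM in the deleted intestine and 41.4 and 35.4 CPM in forestomach. The deleted libraries all lay above the forestomach pair, but the difference did not pass the test, at 0.71 (SE 0.40, adjusted p = 0.12). Pitx1, a paired-type homeodomain factor, reached 314.7, 281.8 and 246.3 CPM against 481.6 and 402.9 CPM. Its log2 fold change of -0.65 (SE 0.22) was short of the minimum, with an adjusted p of 0.014. Sox21, a relative of Sox2, had 37.2, 39.5 and 50.5 CPM against 72.1 and 67.4 CPM, and Ovol1, an epithelial zinc finger factor, 70.9, 45.9 and 35.9 CPM against 54.5 and 51.1 CPM. Neither was called. Sox2 was at 0.805 and 0 CPM and Sox21 at 0.0503 and 0 CPM in wild-type intestine. Ovol1 had 71.4 and 78.4 CPM there and so did not set squamous tissue apart from intestine. Hindstomach of E16 had Sox2 and Sox21 too: the deleted intestine was at 2.19-fold its Sox2 and 0.449-fold its Sox21. Of the 13 regulators, 4 were higher and 1 lower than in hindstomach, where 21.6% of all genes were called higher and 34.6% lower.

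Trp63, the basal cell factor of stratified epithelia, was lower. It stood at 21.1, 19.5 and 7.9 CPM in the deleted intestine and 77.3 and 86.6 CPM in E16 forestomach, where the groups did not overlap, with a log2 fold change of -2.32 (SE 0.47, adjusted p = 3.4e-04). E14 forestomach had more again, at 454.6 and 458.2 CPM, and wild-type intestine had 0 CPM in both libraries. The transcription factors Tfap2c and Bnc1, both found in stratified epithelium, were also lower. Tfap2c stood at 3.94, 3.19 and 0.371 CPM against 34.7 and 21.3 CPM, a log2 fold change of -3.44 (SE 0.97, adjusted p = 0.005). For Bnc1, 0.334, 0 and 0.247 CPM faced 10.3 and 8.72 CPM, at -5.57 (SE 1.27, adjusted p = 9.9e-04). The other genes called lower were Grhl3, a factor of epidermal barrier formation, and Foxe1 and Tfap2a, whose calls were lost without either forestomach library. Without replicate 3 of the deleted intestine, or without replicate 1 of the forestomach, only 3 of the 13 were called lower.

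Most basal-layer genes were lower. Of 14 tested, 10 were lower and 1 higher, Itga6, with a median log2 fold change of -1.46. The call of Itga6 was lost without replicate 1 of the forestomach, under RLE scaling, with DESeq2 and with thinned counts. Krt5, the keratin that defines basal cells, had 172.1, 121.6 and 30.8 CPM in the deleted intestine and 1735 and 1356 CPM in forestomach, 14.2-fold lower at a log2 fold change of -3.83 (SE 0.64, adjusted p = 3.9e-05). Its partner Krt14 had 34.6, 22.6 and 2.35 CPM against 535.7 and 448.3 CPM, 24.3-fold lower at -4.60 (SE 0.73, adjusted p = 2.4e-05). Both were lowest in replicate 3, and neither group reached the other. Krt15, another basal keratin, came closer to forestomach, with 2383, 1756 and 576.9 CPM against 3853 and 3424 CPM and a log2 fold change of -1.21 (SE 0.37, adjusted p = 0.0075). Without replicate 3 of the deleted intestine it was -0.81 and not called. The injury-linked keratin Krt17 and the hemidesmosome collagen Col17a1, which anchors basal cells, were lower at -3.83 (SE 0.79, adjusted p = 4.1e-04) and -3.35 (SE 0.53, adjusted p = 3.5e-05). Aqp3, a channel for water and glycerol, overlapped between the groups, with 471.4, 312.1 and 165.7 CPM against 267.3 and 234.2 CPM. Against wild-type intestine 8 of the same 14 genes were higher in the deleted intestine and 2 lower, beside 23.9% and 27.6% of all genes. Krt15 stood at 1.26 and 1.97 CPM and Krt5 at 0.503 and 0 CPM in wild-type intestine.

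Suprabasal genes divided. Of 22 tested, 11 were lower and 4 higher than in E16 forestomach, with a median log2 fold change of -1.65. The number called lower was 7 without replicate 3 of the deleted intestine, 7 without its replicate 2, and 6 without either forestomach library. Krt13, a keratin of internal squamous linings, was at 1036, 827.0 and 240.6 CPM in the deleted intestine and 635.9 and 584.3 CPM in forestomach. Replicates 1 and 2 lay above both forestomach libraries and replicate 3 below both, and the log2 fold change was 0.20 (SE 0.39, adjusted p = 0.67). Its partner Krt4 had 1078, 683.4 and 243.8 CPM against 1310 and 1621 CPM and was called lower at -1.13 (SE 0.48, adjusted p = 0.047), with every deleted library below both forestomach libraries. The Krt4 call was lost without either forestomach library and without replicate 2 or 3 of the deleted intestine, at -1.28 to -0.73. Wild-type intestine had 0.302 and 0.491 CPM of Krt4 and 0 and 0.109 CPM of Krt13. Without replicate 1 of the deleted intestine the direction for Krt13 turned, to -0.19.

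Perp, a desmosome protein that p63 is known to induce, reached 726.3, 491.3 and 299.8 CPM against 742.2 and 582.9 CPM and was not called, at -0.39 (SE 0.27, adjusted p = 0.21). Ly6d, a surface protein of squamous cells, was higher in the deleted intestine, with 477.5, 735.6 and 278.9 CPM against 174.9 and 140.8 CPM at 1.66 (SE 0.32, adjusted p = 1.9e-04). Krt10, Dsp and Dsg2 were the others called higher, and the desmoplakin gene Dsp and desmoglein gene Dsg2 also serve simple epithelia. Jup, which encodes the junction protein plakoglobin, was the opposite case, with 25.2, 33.1 and 58.05 CPM against 353.1 and 334.0 CPM and a log2 fold change of -3.16 (SE 0.21, adjusted p = 1.6e-10). Jup was lower than in wild-type intestine too, where it stood at 446.0 and 457.1 CPM. Dsc3, a desmocollin of stratified epithelium, had 0.334, 1.51 and 1.98 CPM against 23.3 and 18.5 CPM, and the stress keratin Krt16 2.4, 1.76 and 0 CPM against 22.4 and 26.2 CPM. Both were called lower, Krt16 no longer without either forestomach library.

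**Figure D2:**
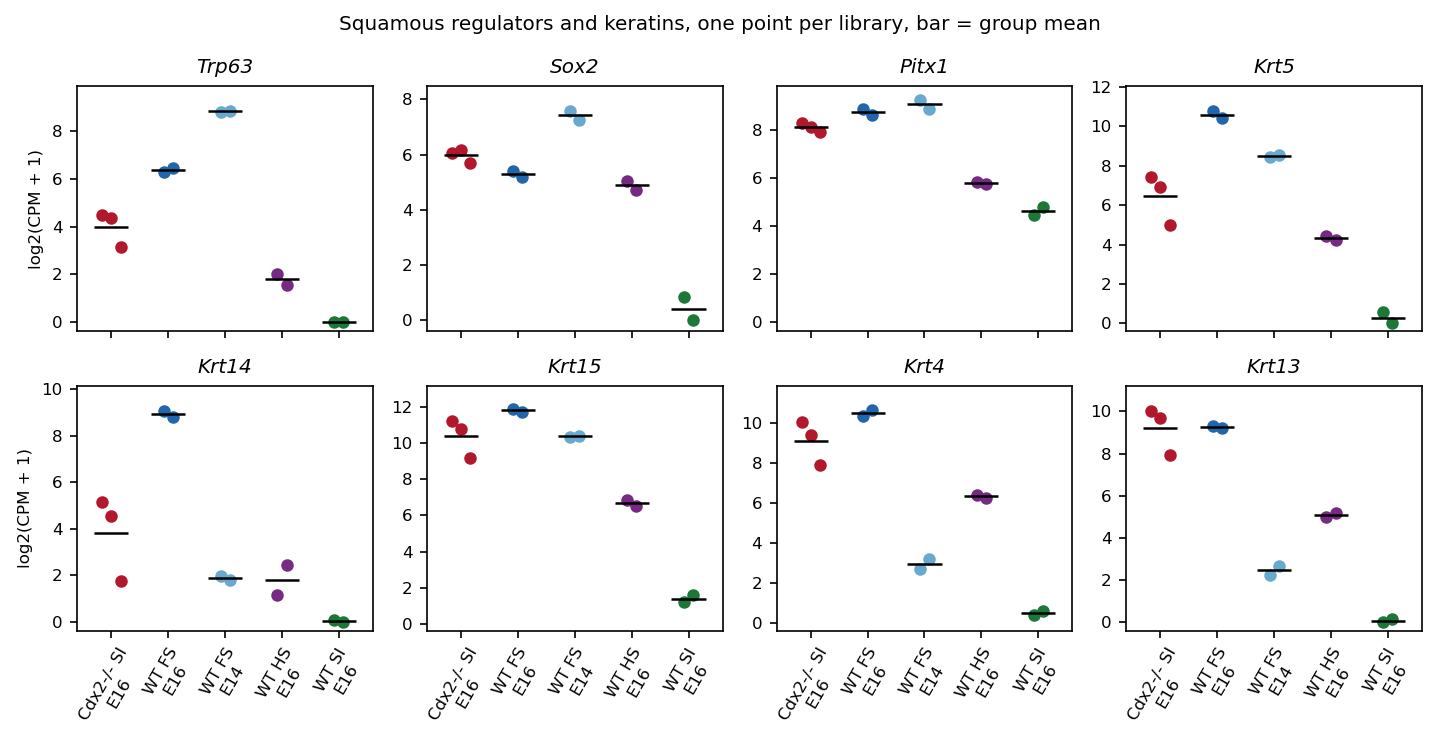
Level of 8 squamous genes as log2(CPM + 1) in each library of the deleted intestine (red), wild-type forestomach at E16 and E14 (blue), hindstomach (purple) and small intestine (green); each point is 1 library and each bar a group mean. Krt13 overlaps E16 forestomach and Sox2 lies above it, Krt5, Krt14 and Trp63 lie between forestomach and intestine, and Krt4 and Krt13 lie far above E14 forestomach.

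Genes of the cornified layer, the last step of squamous differentiation, ranged from nearly absent to above forestomach level. Of 21 tested, 10 were lower and 2 higher than in E16 forestomach, with a median log2 fold change of -1.77. Loricrin, Lor, the main protein of the cornified envelope, had 0.134, 1.85 and 2.1 CPM in the deleted intestine and 36.1 and 39.95 CPM in forestomach, at -4.85 (SE 0.73, adjusted p = 8.7e-06). Cdsn, which encodes the adhesion protein corneodesmosin, had 0.134, 0.587 and 0.247 CPM against 21.1 and 17.8 CPM, at -5.90 (SE 0.96, adjusted p = 1.1e-04). Crct1 had 0, 0.336 and 0 CPM against 48 and 35.97 CPM, so the squamous stomach of this stage had a transcript that the deleted intestine all but lacked. Cnfn, the envelope protein cornifelin, and Krtdap were intermediate. Cnfn stood at 33.5, 37.6 and 6.05 CPM against 317.0 and 308.0 CPM and Krtdap at 18.2, 40.7 and 15.6 CPM against 241.4 and 180.8 CPM, and both were called lower. The protease gene Asprv1 was lower as well, at -2.90 (SE 0.31, adjusted p = 9.7e-08).

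Sprr3, a small proline-rich envelope precursor of the esophagus, had 105.5, 95.04 and 32.4 CPM against 99.9 and 106.1 CPM, with replicates 2 and 3 below both forestomach libraries, and was not called, at -0.40 (SE 0.49, adjusted p = 0.48). Sbsn, suprabasin, had 15.5, 17.03 and 14.1 CPM against 16.98 and 14.7 CPM, with overlapping groups and a log2 fold change of -0.03 (SE 0.43). Sprr1a was higher in every deleted library, with 524.1, 747.1 and 361.8 CPM against 114.4 and 97.05 CPM at 2.36 (SE 0.37, adjusted p = 1.9e-05). Sprr2b, whose close copies in the Sprr2 family may take some of its reads, was the other gene called higher. Only 1 cornified-layer gene was called higher without replicate 2 of either group, with DESeq2, with thinned counts, and both with no filter on low counts and with a minimum count of 50, against 3 without replicate 3 of the deleted intestine. Sprr1a was called in each of these, so the call lost was that of Sprr2b. DESeq2 called 6 of the 21 genes lower rather than 10, and Crct1, Cnfn and Krtdap were among the calls lost.

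Over the 4 squamous lists together, 70 genes were tested and 55 of them were higher in E16 forestomach than in E16 intestine, where 18.6% of all genes were called higher and 16.4% lower. Of the 70, 44 were higher in the deleted than in wild-type intestine, where 23.9% of all genes were called higher and 27.6% lower. Of those 44, 21 were lower than in E16 forestomach, 18 were not called against it and 5 were higher. The 2 comparisons share the deleted libraries, so these counts are not independent. A gene not called is not shown to be equal: Krt1 had a log2 fold change of -2.32 (SE 1.08) and Spink5 of 3.12 (SE 1.63), both with wide errors. Those of Sbsn, Serpinb5 and Krt13 were -0.03 (SE 0.43), -0.10 (SE 0.55) and 0.20 (SE 0.39).

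Relative to E14 forestomach, where 26.4% of all genes were called higher and 26.1% lower, 12 of 21 cornified-layer genes were higher in the deleted intestine and 3 lower, with a median log2 fold change of 2.38. At a minimum count of 50 the number higher was 7. In this comparison too the calls moved with genomic span: 43.2% of the 4058 genes of shortest span were higher and 12.3% lower, against 13.5% and 35.0% of the 4058 of longest span, and the part of span in the list's count was not tested. Some markers of other cell types were higher than in E14 forestomach as well: 6 of 7 immune, 4 of 5 endothelial and 2 of 3 mesothelial genes. Of 14 mesenchymal genes 4 were higher and 4 lower, of 6 neural genes 1 and 0, and of 4 red cell genes 0 and 1. All 43 markers took at most 0.0431% of the counts of any deleted library. Their part in the list's count was not tested. Suprabasal genes gave 7 higher and 5 lower of 22. Krt4 was at 5.52 and 8.31 CPM, Krt13 at 3.81 and 5.39 CPM and Cnfn at 0 and 0 CPM in the E14 libraries, all below every deleted library. Their log2 fold changes against E14 forestomach were 6.59 for Krt4 and 7.25 for Krt13, both called. Among regulators and basal genes, 7 of 13 and 8 of 14 were lower than at E14. Trp63 differed by -4.80 and Sox2 by -1.45 on the log2 scale. Both E14 and E16 comparisons use the same deleted libraries.

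Simple keratins, which line single-layered epithelia, were higher in the deleted intestine than in E16 forestomach for 4 of 6 genes, with 0 lower and a median log2 fold change of 3.48. Krt8 had 6132, 3718 and 2665 CPM against 377.4 and 347.2 CPM, 11.5-fold higher at 3.53 (SE 0.24, adjusted p = 1.4e-10). Krt18, its partner, had 6405, 5058 and 3673 CPM against 144.0 and 165.8 CPM, 32.6-fold higher. Krt19 had 11063, 8615 and 5204 CPM against 728.3 and 803.9 CPM, and Krt20, a keratin of mature gut lining cells, 320.0, 292.9 and 134.0 CPM against 5.25 and 5.66 CPM. Every deleted library lay above every forestomach library for these 4 keratins. Epcam itself, the sorted protein's gene, stood at 2438, 2132 and 1849 CPM in the deleted intestine and 137.2 and 112.0 CPM in E16 forestomach, and at 806.2 and 824.6 CPM in E14 forestomach.

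Most glandular stomach genes were higher too. Of 20 tested, 17 were higher in the deleted intestine than in E16 forestomach and 0 lower, with a median log2 fold change of 4.21. The gastrokine genes, which encode secreted proteins of gastric surface mucous cells, were nearly absent from forestomach. Gkn1 had 1372, 4587 and 1129 CPM in the deleted intestine and 0 CPM in both forestomach libraries, at least 5124-fold higher. Gkn2 and Gkn3 were at least 2578-fold and 1436-fold higher by the same floor. Tff2, a trefoil peptide of mucous neck cells, had 718.9, 2075 and 1245 CPM against 2.01 and 2.3 CPM, at 9.29 (SE 0.55, adjusted p = 2.3e-11). Cldn18, the claudin of gastric tight junctions, had 1198, 1281 and 1083 CPM against 10.5 and 12.1 CPM, and the annexin gene Anxa10 1049, 1005 and 704.9 CPM against 6.33 and 10.7 CPM. No deleted library came near the forestomach range for these genes.

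Of the genes of deeper gland cells, the pepsinogen genes Pgc and Pga5 and the intrinsic factor gene Gif were also called higher. Atp4b, the smaller subunit of the acid pump, had 154.9, 313.6 and 151.1 CPM against 12.96 and 13.3 CPM, but the catalytic subunit gene Atp4a had 10.2, 23.7 and 10 CPM against 26.9 and 26.02 CPM and was not called. Muc6, the gland mucin, had 5.88, 10.3 and 5.68 CPM and was at least 15.8-fold above a forestomach at the floor. Psca, a surface protein made by squamous and gastric mucous cells alike, overlapped, with 908.1, 1233 and 358.5 CPM against 710.0 and 733.0 CPM. Against E16 hindstomach, where 21.6% of all genes were called higher and 34.6% lower and the log2 fold change had a median of -0.49 over all genes, 10 of the 20 glandular genes were higher in the deleted intestine and 5 lower. Gkn1 had 12.3 and 9.79 CPM and Tff2 57.5 and 53.5 CPM in hindstomach, while Atp4a had 328.5 and 323.6 CPM and Muc6 30.2 and 30.9 CPM there. The neonatal stomach protease chymosin, Cym, had 180188, 207649 and 130757 CPM in the deleted intestine, 1517 and 1796 CPM in forestomach and 23158 and 21764 CPM in hindstomach.

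**Figure D3:**
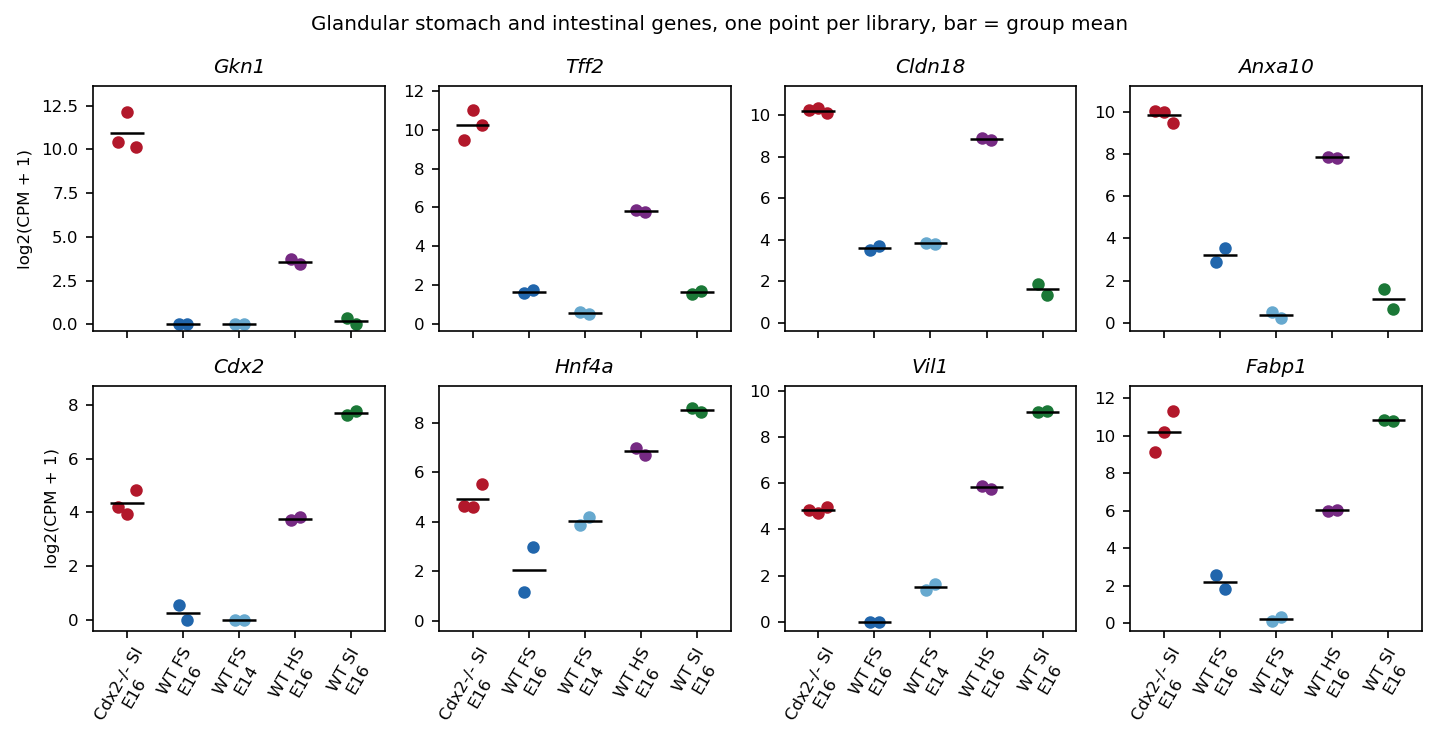
Level of 4 glandular stomach genes (top) and 4 intestinal genes (bottom) as log2(CPM + 1) in each library; each point is 1 library and each bar a group mean. The deleted intestine (red) lies above E16 forestomach (blue) for all 8, lies below wild-type intestine (green) for Cdx2, Hnf4a and Vil1, and overlaps it for Fabp1.

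Intestinal transcription factors were reduced but not to the forestomach level. All 10 tested were lower in the deleted intestine than in wild-type intestine, and 7 of the 10 were still higher than in E16 forestomach with 0 lower, at a median log2 fold change of 3.17. Hnf4g, a nuclear receptor of enterocytes, had 29.3, 34.8 and 39.8 CPM in the deleted intestine, 1.39 and 0 CPM in forestomach and 295.7 and 293.2 CPM in wild-type intestine. Its relative Hnf4a had 23.7, 23.3 and 44.7 CPM, 1.23 and 6.89 CPM and 388.9 and 349.1 CPM in the same order. Isx, an intestine-specific homeodomain factor, was 0.735, 1.68 and 12.8 CPM in the deleted intestine, 0 CPM in both forestomach libraries and 117.7 and 124.2 CPM in wild-type intestine. Replicate 3 had the most Isx, Hnf4a and Hnf4g of the deleted libraries.

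Factors shared by much of the gut endoderm gave 10 higher and 0 lower of 14 tested, with a median log2 fold change of 2.18. Onecut2 had 197.4, 216.3 and 262.1 CPM against 0.463 and 0 CPM, at least 488.5-fold higher, and stood above wild-type intestine too, at 21.8 and 16.8 CPM. Pdx1, which marks the posterior foregut from antrum to duodenum, had 37.8, 28.6 and 25.7 CPM against 0 CPM in both forestomach libraries, at least 66.6-fold higher. Gata4, a factor of the intestine and glandular stomach, had 36.4, 50.2 and 71.1 CPM against 14.2 and 20.8 CPM, and 215.0 and 230.1 CPM in wild-type intestine. The ETS factor Elf3 and the zinc finger factor Klf5 were higher than in forestomach at 3.71 (SE 0.28, adjusted p = 8.2e-10) and 1.86 (SE 0.18, adjusted p = 2.0e-08).

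Enterocyte genes, which serve nutrient uptake, gave 21 higher and 0 lower of 23 tested against E16 forestomach, with a median log2 fold change of 5.22, although 17 of the same 23 were lower than in wild-type intestine. Vil1, the brush border protein villin, had 27.9, 25.2 and 30.3 CPM in the deleted intestine, 0 CPM in both forestomach libraries and 537.3 and 560.6 CPM in wild-type intestine. The fatty acid binding proteins showed no such gap. Fabp1 had 561.3, 1201 and 2594 CPM in the deleted intestine, 4.94 and 2.6 CPM in forestomach and 1855 and 1813 CPM in wild-type intestine, and Fabp2 955.5, 1620 and 865.4 CPM, 2.01 and 1.68 CPM and 1496 and 1495 CPM. Neither was called against wild-type intestine, at -0.34 (SE 0.37, adjusted p = 0.44) and -0.38 (SE 0.22, adjusted p = 0.14). Apoa1, an apolipoprotein, had 1435, 1786 and 1583 CPM in the deleted intestine, 10.3 and 7.96 CPM in forestomach and 2541 and 2447 CPM in wild-type intestine. Every deleted library lay below both wild-type intestinal libraries for Apoa1, at -0.64 (SE 0.15, adjusted p = 0.0013), short of the fold change minimum. Sis, the disaccharidase sucrase-isomaltase, had 64.3, 76.8 and 0 CPM, so that replicate 3 matched the 0 CPM of both forestomach libraries while replicates 1 and 2 passed the 7.14 and 6.82 CPM of wild-type intestine.

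Goblet cell genes gave 8 higher and 0 lower of 9, with a median log2 fold change of 8.10. Agr2, a folding factor for mucins, had 1337, 2408 and 1846 CPM against 7.56 and 3.37 CPM, and Tff3, the intestinal trefoil peptide, 163.8, 339.5 and 390.8 CPM against 1.23 and 0.918 CPM. Spink4 was at least 400.3-fold higher, from 0 CPM in both forestomach libraries. Zg16, a goblet cell lectin, had 242.6, 417.6 and 5.19 CPM and was again low in replicate 3. Set against wild-type intestine, 5 of the 9 goblet cell genes were lower and 2 higher, beside 27.6% and 23.9% of all genes. Of 16 enteroendocrine genes 8 were higher than in E16 forestomach and 2 lower, Chga and Tph1, with a median log2 fold change of 1.92. Ghrl, which encodes the hormone ghrelin, had 52.8, 167.6 and 410.5 CPM against 3.86 and 3.52 CPM, and Sst, somatostatin, 8.08, 41.4 and 119.9 CPM against 2.01 and 0 CPM. Ghrl and Sst were highest in replicate 3. Set against wild-type intestine, 12 of the 16 enteroendocrine genes were lower and 2 higher. Of 8 genes linked to intestinal stem cells and crypts, 2 were higher than in E16 forestomach, Lgr5 and Ascl2, and 4 lower, with a median log2 fold change of -1.11. The shares over all genes were 24.7% higher and 28.7% lower, and the share of the list that was higher, 25%, is near the first.

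Promoters of 3 of these genes are shown because they hold a short CDX-type motif and because the genes took different courses, with Sis and Fabp1 called above forestomach and Krt13 overlapping it. They come from RefSeq on GRCm38.p6, not from the genome build of the counts, and run over the 250 bases before the start site. The Sis window is chr3:72967864-72968113 on the minus strand, with its match 52 bases before the start. The Fabp1 window is chr6:71199629-71199878 on the plus strand, with matches 227 and 89 bases before the start. The Krt13 window is chr11:100120578-100120827 on the minus strand, 1 of 2 listed for the gene, with its match 243 bases before the start. Capitals mark the motif, CAATAAA or CCATAAA on either strand, so a match on the other strand reads TTTATTG or TTTATGG.
Sis: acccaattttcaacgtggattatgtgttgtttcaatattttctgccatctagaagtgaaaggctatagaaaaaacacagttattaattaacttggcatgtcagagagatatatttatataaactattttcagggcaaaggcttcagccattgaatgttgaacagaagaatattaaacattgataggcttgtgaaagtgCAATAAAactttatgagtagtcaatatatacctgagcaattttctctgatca
Fabp1: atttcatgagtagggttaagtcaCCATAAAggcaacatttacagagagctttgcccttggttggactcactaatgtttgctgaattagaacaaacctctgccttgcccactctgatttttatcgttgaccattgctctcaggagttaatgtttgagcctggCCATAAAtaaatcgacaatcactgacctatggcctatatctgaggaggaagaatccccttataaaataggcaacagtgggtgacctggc
Krt13: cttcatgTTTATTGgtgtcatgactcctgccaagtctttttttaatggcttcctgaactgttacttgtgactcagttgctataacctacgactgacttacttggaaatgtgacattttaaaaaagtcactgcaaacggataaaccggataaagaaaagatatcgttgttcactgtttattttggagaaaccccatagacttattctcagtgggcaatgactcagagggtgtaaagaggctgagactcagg
The motif was found in 5.47% of the 12705 tested genes with a listed window of 300 bases, 50 of them after the start. The share was 6.17% among genes higher in the deleted intestine than in E16 forestomach and 4.89% among genes lower. Against wild-type intestine it was 5.53% among genes higher and 5.32% among genes lower. A match is only a match of letters.

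Hox genes mark position along the body axis. Of 35 tested, 11 were lower in the deleted intestine than in E16 forestomach and 2 higher, with a median log2 fold change of -0.77. The share lower, 31.4%, is near the 28.7% of all genes, and the number higher was 0 without replicate 1 of the forestomach and with only the E16 groups. Hoxc5 had 67.2, 55.4 and 35.4 CPM in the deleted intestine, 80.3 and 83.4 CPM in forestomach and 0.906 and 0.819 CPM in wild-type intestine. Hoxc4 had 65.99, 47.6 and 30.01 CPM, 25 and 28.01 CPM and 1.16 and 1.2 CPM in the same order, and Hoxc6 11.5, 11.9 and 7.29 CPM, 14.8 and 11.5 CPM and 0.503 and 0.273 CPM. Hoxc8 had 7.01, 8.47 and 4.32 CPM, 12.96 and 11.3 CPM and 0.101 and 0 CPM. None of the 4 was called against E16 forestomach and all 4 were higher than in wild-type intestine. The 11 genes called lower were Hoxa3, Hoxa4, Hoxa5, Hoxa7, Hoxb2, Hoxb5, Hoxb6, Hoxb7, Hoxd3, Hoxd8 and Hoxd9. Hoxd9 had 0, 0 and 0 CPM against 1.23 and 0.612 CPM, and its call was lost with DESeq2. Hoxb5 had 0.668, 1.09 and 0.371 CPM against 23 and 31.5 CPM, at -5.22 (SE 0.44, adjusted p = 3.0e-09), Hoxb6 0.0668, 1.09 and 0 CPM against 20.99 and 26.02 CPM, and Hoxa5 6.68, 7.55 and 2.72 CPM against 30.1 and 31.4 CPM. Mesenchymal markers were also higher in the same forestomach libraries, and in E14 forestomach, where those markers took 0.0186% to 0.0196% of the counts, Hoxb5 had 0.513 and 0.361 CPM and Hoxb6 0.428 and 0 CPM. The part of mesenchymal RNA in these differences was not tested. Hoxb1, called higher, was under 1 CPM in each deleted library and no longer called without either forestomach library.

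Markers of other cell types were lower in the deleted intestine almost throughout. All 14 mesenchymal genes tested were called lower, all 4 red cell genes, 5 of 7 immune, 4 of 5 endothelial, 4 of 6 neural and 2 of 3 mesothelial genes, with 0 higher. Acta2, the smooth muscle actin, had 80.3, 103.8 and 132.2 CPM in the deleted intestine and 7026 and 8576 CPM in forestomach, and Col3a1, a fibrillar collagen, 14.96, 18.3 and 15.4 CPM against 4383 and 5047 CPM. Alas2, the heme synthesis enzyme of red cell precursors, had 1.74, 0.419 and 0.247 CPM against 13296 and 18232 CPM. In hindstomach Acta2 was at 742.9 and 783.8 CPM and Alas2 at 985.4 and 1397 CPM. Of the globin genes, Hba-a1 and Hbb-b1 were at 0 counts in every library given here, while the embryonic globin Hbb-y had 2.6, 9.39 and 7.53 CPM in the deleted intestine and 258.5 and 263.9 CPM in forestomach and was called lower.

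Outside the lists, the 12 genes furthest above forestomach by fitted fold change, which for genes near 0 counts depends on the prior count and gives no firm order, were Sult1c2, Cyp2c65, Duoxa2, Lypd8, Aadac, Klk1, Tmem213, Ms4a8a, Prss2, Otc, Eps8l3 and Reg3b. Sult1c2, a sulfotransferase gene, had 795.8, 1001 and 439.1 CPM against 0 CPM in both forestomach libraries, at least 1616-fold higher. Lypd8, a secreted protein of the colonic surface, was at least 2638-fold higher, with 983.3, 1489 and 1177 CPM, and wild-type intestine had 944.1 and 952.1 CPM. Reg3b, an antimicrobial lectin, had 2854, 4608 and 1.24 CPM, high in replicates 1 and 2 and near the forestomach values of 0.617 and 0.306 CPM in replicate 3. Prss2 belongs to the trypsin family, whose close copies may share reads. The 12 furthest below, ranked likewise, included Agtr2, Tspo2, Trim10, Slc4a1, Vip, Epb4.2, Gpr133, Nkx6-1, Adamts13, Stmn4 and Eln. Slc4a1 and Epb4.2 encode red cell membrane proteins, Vip is a neuropeptide and Eln is elastin. Slc4a1 stood at 0, 0 and 0.494 CPM against 931.0 and 1727 CPM and Eln at 0.0668, 0.671 and 0.247 CPM against 538.0 and 684.4 CPM.

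A wider set of organ genes came from the contrast of E14 libraries, which are in neither group of the E16 comparison but share its fit, filter and scaling. At E14, 803 genes were called higher in forestomach than in small intestine and 1256 lower. Of the 803 forestomach genes, 364 (45.3%) were lower in the deleted intestine than in E16 forestomach, 136 (16.9%) were higher, and the median log2 fold change was -0.99. Over all genes 28.7% were lower and 24.7% higher. The same set was higher than in wild-type E16 intestine for 372 genes (46.3%) and lower for 147 (18.3%), beside 23.9% and 27.6% of all genes. Its median level, as log2 of group mean CPM plus 1, was 3.39 in the deleted intestine, between 2.45 in wild-type intestine and 4.45 in E16 forestomach, and it was 4.14 in hindstomach. Over all tested genes the same median was 3.44 in the deleted intestine, 3.78 in wild-type intestine, 3.91 in E16 forestomach and 4.20 in hindstomach, so the set lay close to all genes in the deleted intestine and in hindstomach, above them in forestomach and below them in wild-type intestine. Among the set's most abundant genes at E16, Krt15, Krt5, Krt4, Dcn, Cav1 and Ltbp4 were lower in the deleted intestine. Dcn, decorin, is a connective tissue protein and had 18.9, 26.6 and 9.02 CPM against 1411 and 1262 CPM in E16 and 20.4 and 19.9 CPM in E14 forestomach. Igfbp2, Car2, Anxa1, Anxa2, Krt7 and Perp were not called. Car2, a carbonic anhydrase, had 2652, 2650 and 1776 CPM against 1084 and 1475 CPM and 27.8 and 19.4 CPM in wild-type intestine, and Igfbp2, a growth factor binding protein, 1018, 832.2 and 566.5 CPM against 1264 and 1311 CPM and 11.7 and 14.9 CPM.

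The 1256 intestine genes of E14 had a median level of 3.21 in the deleted intestine, 3.28 in E16 forestomach, 4.34 in hindstomach and 4.61 in wild-type intestine. They include markers of other cell types, such as Col1a1, Col3a1, Acta2 and Ptprc, and their median in E14 forestomach was 1.65. The part of RNA of other cells in the E16 forestomach level was not tested. Set against the medians of all genes, the 1256 genes lay less far below those medians in the deleted intestine than in forestomach. Of the set, 497 genes (39.6%) were higher in the deleted intestine than in E16 forestomach and 410 (32.6%) lower, beside 24.7% and 28.7% of all genes, and the share lower is near that background. The fitted median log2 fold change of 0.46 became 0.29 with genes at the floor set to their bound. When the set was called in a fit of the E14 groups alone the balance turned, with 522 genes (31.7%) higher, 583 (35.4%) lower and a median of -0.10, and with a log2 fold change minimum of 2 it was 37.1% higher and 35.7% lower.

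**Figure D4:**
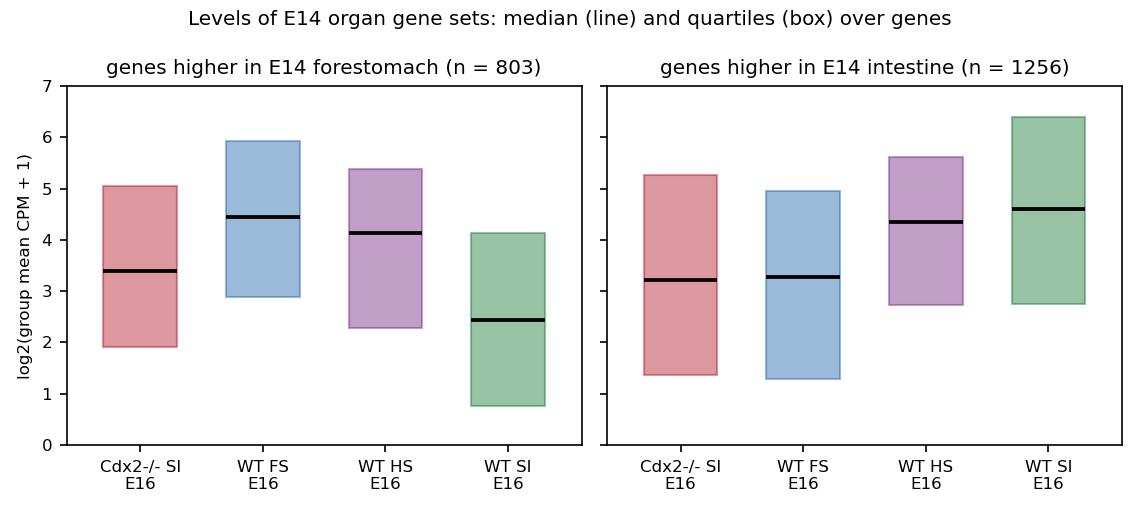
Level of the 803 genes higher in E14 forestomach (left) and the 1256 genes higher in E14 intestine (right), as log2 of the group mean CPM plus 1, in 4 groups at E16; the line is the median over genes and the box spans the quartiles. The deleted intestine lies between wild-type intestine and forestomach for the first set and beside forestomach, at 3.21 against 3.28, for the second. Both sets include markers of other cell types.

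Across all 17239 genes, the deleted intestine was less like E16 forestomach than like any of the other 8 wild-type groups of E12, E14 and E16. Spearman's rho over log2 CPM averaged 0.738 over the 6 pairs of libraries, with a range of 0.730 to 0.746. The mean was highest with E14 small intestine, at 0.820 (range 0.798 to 0.849), and was 0.813 with E14 hindstomach. It was 0.773 with E16 hindstomach, 0.815 with E16 small intestine, 0.805 with E14 forestomach and 0.815 with E12 forestomach. The deleted libraries correlated at 0.967 with each other and the 2 forestomach libraries at 0.977. These correlations across genes describe the libraries and carry no test, and the pairs share libraries. E16 forestomach correlated at 0.811 with its own earlier stage, E14 forestomach, and was closest to E16 hindstomach, at 0.881. Leaving out the markers of other cell types gave 0.740 between the deleted intestine and E16 forestomach.

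**Figure D5:**
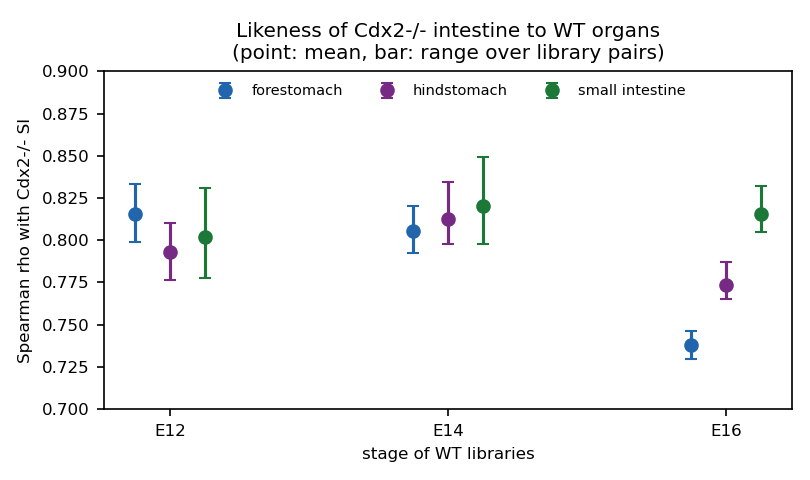
Spearman's rho across 17239 genes between the deleted intestine and wild-type forestomach (blue), hindstomach (purple) and small intestine (green) by stage; each point is the mean over 6 pairs of libraries and each bar their range, on an axis that does not start at 0. E16 forestomach is lowest, at 0.738, and its range of 0.730 to 0.746 overlaps no other group.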

How the data were processed

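The authors deposited a table of raw counts per gene symbol, of which 27 of 33 columns were used and 2 columns matched no sample. Per the submitters' processing notes, STAR 2.5.3a, HTSeq and the mm9 build were used, with no role or strand setting given. Antisense, overlapping and near-identical genes (Sprr2, Krt6a and Krt6b, Prss2) may therefore share reads. From 24015 symbols, 2 rows without a gene name were left out and 17239 passed filterByExpr at a minimum count of 10. All 27 embryonic libraries in 13 groups entered 1 fit in edgeR 4.0.16 (R 4.3.3) with TMM scaling, tested on simulated data. Scaling factors were 0.542 to 0.651 in the deleted intestine and 1.031 to 1.085 in E16 forestomach. Libraries of both groups differed by more than sampling noise. Alternatives used RLE scaling, DESeq2 1.42.0, other filters, fewer groups, thinned counts, a replicate block and each library left out; the scaling without markers of other cells and Cym was chosen after seeing the data. Members and lists were chosen with earlier results of these data known. Named genes were the most abundant or most changed of each list, the 12 most changed unlisted genes in each direction, 12 of the E14 forestomach set and 22 added after their values were seen. Some genes are not reported here.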

Additional observations from a re-analysis of the deposited data

How the results depend on the processing

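The count of genes called between the deleted intestine and E16 forestomach, 9194, lay between 8584 and 11183 under the other settings. The lowest came from a fit of only the groups compared and the highest from no fold change minimum. With 1 library left out the count lay between 8411 and 9167. The direction of a few uncalled genes turned. Ovol1, at -0.05, became 0.021 with only the E16 groups, 0.12 with the replicate block, and 0.12 and 0.15 without replicate 2 or 3 of the deleted intestine. Sbsn, at -0.03, became 0.040 with the replicate block, 0.039 with only the E16 groups and without replicate 3 of the deleted intestine, and 0.075 without replicate 1 of the forestomach. Serpinb5, at -0.096, became 0.27 with the replicate block, 0.15 without replicate 1 of the forestomach and 0.26 without replicate 3 of the deleted intestine. Aqp3 became -0.067 and Krt13 -0.19 without replicate 1, and Psca -0.10 without replicate 2, of the deleted intestine. The median of the E14 intestine set, 0.46, became -0.10 with sets called in a fit of the E14 groups alone. The cause was not tested in any of these. Deviations of same-numbered libraries from their group means correlated at 0.04 and -0.03, which showed no pairing by replicate number. With 2 forestomach libraries the deviations mirror each other, so this check cannot decide whether libraries shared a batch. With the replicate block 9053 genes were called, and the squamous regulators called lower went from 6 to 3, the suprabasal genes from 11 to 7, Krt15 to -0.83 and Krt4 to -0.76. DESeq2 called 7 suprabasal genes lower. RLE scaling and DESeq2 moved the median of all genes against E14 forestomach from 0 to 0.16, and against it a minimum count of 50 left 7 cornified-layer genes higher rather than 12. With all 20087 genes of 1 count or more, Spearman's rho of the deleted intestine was 0.802 with E16 forestomach, 0.849 with E14 forestomach, 0.830 with E16 hindstomach and 0.857 with E16 small intestine. The shallow forestomach libraries set a floor of 0.459 and 0.463 CPM, which limits every fold against genes at 0 there.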
